A study of Mus musculus with 6 samples.

Results

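The 7 genes described here belong to MHC class II antigen presentation: H2-Aa, H2-Ab1, H2-Eb1, H2-DMa, H2-DMb1, Cd74 and Ciita. They were chosen by symbol among the 45777 genes listed for tumors grown from B16F10 cells, a mouse melanoma cell line, and each symbol matched 1 listed gene. Total RNA was sequenced from 3 tumors of the footpad, which carries the weight of the animal, and 3 tumors of the flank skin, with 1 library per tumor, to ask how the site of the graft alters the tumor transcriptome. The sample labels give Foxn1-/- hosts of 8 weeks for all 6 tumors, animals that lack a thymus and mature T cells, whereas the series is titled a syngeneic graft and the study's own text leaves the host of these tumors unnamed. The host was the same in both groups by the labels, which give the site as the difference between the groups. The study also reports restricted growth of footpad tumors. By the methods, syngeneic grafts were placed in flank and footpad of the same animal, so that tumors of the sites may share hosts. The methods give female C57BL/6J mice of 6 weeks for those grafts, unlike the labels in genotype and age. No source used here says which tumors shared an animal, and the labels do not say that the 3 tumors of a site came from separate ones. A figure legend of the study counts mice as replicates for selected genes of the footpad and flank comparison. By that legend the tumors of a site would come from separate animals. Which footpad tumor shared an animal with which flank skin tumor stays unknown, so p-values measure the spread between these tumors.

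MHC class II molecules present peptides from endocytosed proteins to CD4+ helper T cells. They are made of an alpha and a beta chain, which fold around the invariant chain CD74 in the endoplasmic reticulum. In the endosome proteases degrade CD74 to a remnant called CLIP, and H2-DM, itself a dimer of an alpha and a beta chain, removes CLIP and edits the peptide load. The coactivator CIITA switches these genes on together by binding the RFX, CREB and NF-Y factors at the X and Y boxes of their promoters. The pathway runs constitutively in dendritic cells and B cells, in macrophages when they are stimulated, and in many other cells, melanoma cells among them, after exposure to interferon-gamma. Some mouse strains, C57BL/6 among them, make no E alpha chain and show A as their only surface class II molecule, and the labels name no background strain for these hosts.

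The libraries held from 46529649 to 66364366 reads on genes. Counts were scaled by the TMM method of edgeR to CPM, which divides each count by the scaled library size, and 3 reads, taken as the detection limit, equalled 0.0437 to 0.0673 CPM. The sites were compared with the quasi-likelihood test of edgeR over 17210 genes, all 7 class II genes among them, and a gene was called at a Benjamini-Hochberg adjusted p under 0.05, which held for 4.87% of them. The class II genes were expressed at a low level in every tumor, with 3 to 595 reads per gene. Among the 7 genes, 6 had a higher mean in footpad tumors and none of these was called by edgeR (H2-Ab1 and H2-DMa had an unadjusted p under 0.05), against 3.43% of all tested genes called higher. H2-DMb1 was called lower, against 1.44% of all tested genes called lower. The median log2 fold change of the 7 genes was 0.94, footpad relative to flank skin, and that of all tested genes was -0.00425. In 3 of the 7 genes every footpad tumor lay above every flank skin tumor, as in 17.5% of tested genes, and in 1 of the 7 every footpad tumor lay below, as in 15% of tested genes. DESeq2 called 2 of the 7 genes higher, against a background of 9.82%, and 1 lower, against 6.08%.

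**Figure D1:**
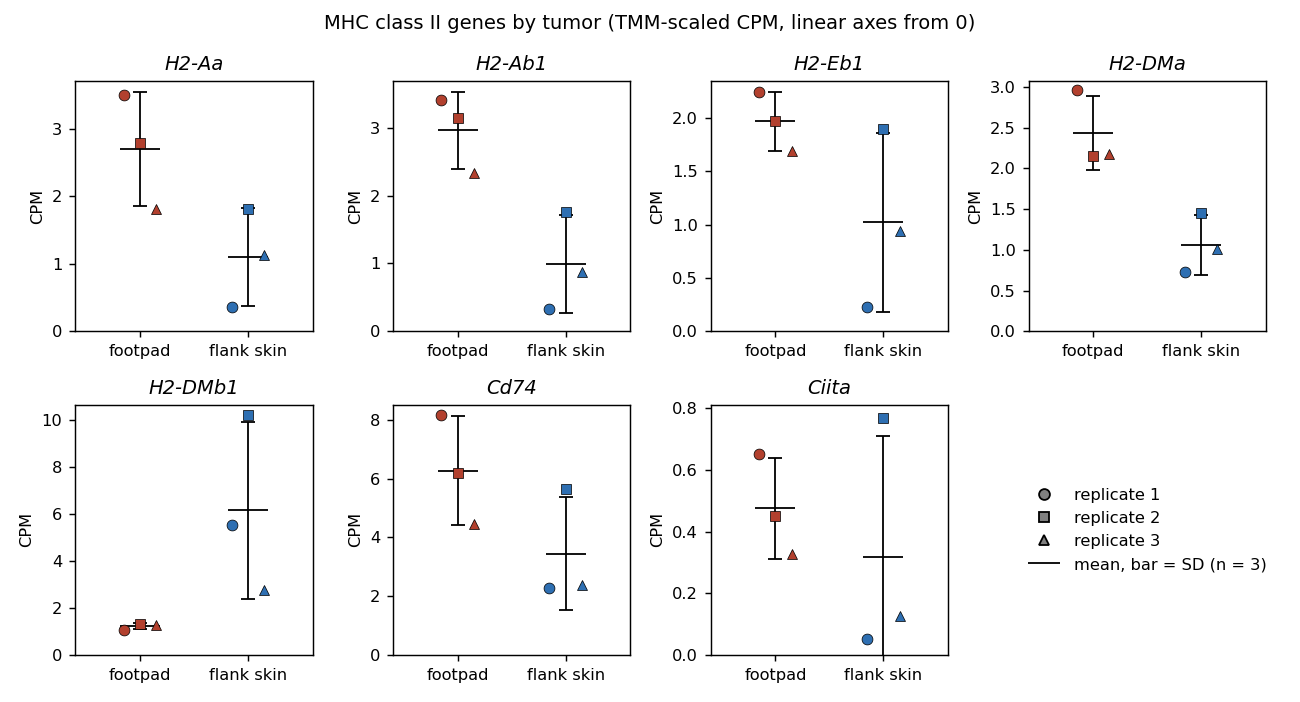
CPM of each class II gene (vertical axes, linear from 0) in the 3 footpad and 3 flank skin tumors, with the marker shape giving the replicate number, the horizontal line the mean and the bar 1 SD. H2-DMb1 is the gene with all footpad tumors below all flank skin tumors, whereas flank skin replicate 1 is the lowest tumor for the other 6.

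H2-Aa and H2-Ab1 encode the alpha and the beta chain of the A molecule, which binds peptide and is seen by the T cell receptor. Levels of H2-Aa were 3.50, 2.78 and 1.82 CPM for footpad replicates 1, 2 and 3, against 0.362, 1.81 and 1.13 CPM for flank skin replicates 1, 2 and 3. The footpad tumors were higher, but footpad replicate 3 and flank skin replicate 2 were separated by next to nothing, at 1.816 and 1.813 CPM. The log2 fold change was 1.29 (SE 0.57; edgeR adjusted p = 0.210, DESeq2 adjusted p = 0.132). H2-Ab1 measured 3.41, 3.15 and 2.33 CPM in the footpad tumors, against 0.328, 1.76 and 0.879 CPM in the flank skin tumors. The sites did not overlap, and flank skin replicate 1 lay far below the rest. Its log2 fold change was 1.58 (SE 0.57), which edgeR did not call (adjusted p = 0.141) and DESeq2 did (adjusted p = 0.0478).

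H2-Eb1 encodes the beta chain of the E molecule. It measured 2.24, 1.97 and 1.69 CPM in the footpad tumors, against 0.224, 1.90 and 0.942 CPM in the flank skin tumors. The sites overlapped, since flank skin replicate 2 reached the level of the footpad tumors. The log2 fold change was 0.94 (SE 0.66; edgeR adjusted p = 0.408). H2-Ea-ps, as the files list the alpha chain gene of the E molecule, which RefSeq annotates as a transcribed pseudogene, measured 1.88, 2.46 and 1.71 CPM in the footpad tumors and 0.707, 1.97 and 0.974 CPM in the flank skin tumors. Those groups overlapped too, with a log2 fold change of 0.73 (SE 0.44; edgeR adjusted p = 0.344). H2-Eb1 lies at chr17:34305867-34316674 of GRCm38 and overlaps an antisense gene, and the strand setting of the counting is not given in the sources used here, so reads of the pair cannot be told apart.

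Cd74 encodes the invariant chain and had the most reads of the 7 genes in the footpad tumors. It measured 8.19, 6.21 and 4.45 CPM in the footpad, against 2.28, 5.66 and 2.40 CPM in the flank skin. Flank skin replicate 2 stood inside the footpad range and the other two flank skin tumors below it. The log2 fold change was 0.87 (SE 0.43; edgeR adjusted p = 0.249, DESeq2 adjusted p = 0.175).

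H2-DMa and H2-DMb1, the alpha and the beta chain of the peptide editor H2-DM, differed between the sites in opposite directions. H2-DMa measured 2.96, 2.16 and 2.18 CPM in the footpad tumors, against 0.724, 1.45 and 1.01 CPM in the flank skin tumors. All footpad tumors were above all flank skin tumors, with a log2 fold change of 1.20 (SE 0.37) that missed the threshold in edgeR (adjusted p = 0.1003) and passed it in DESeq2 (adjusted p = 0.0351). H2-DMb1 measured 1.08, 1.31 and 1.29 CPM in the footpad tumors, from 48, 90 and 63 reads, against 5.50, 10.2 and 2.75 CPM in the flank skin tumors, from 319, 595 and 172 reads. The footpad tumors lay close together and well below each flank skin tumor, while the flank skin tumors were spread widely, with replicate 2 the highest. The means were 1.22 ± 0.129 CPM in the footpad and 6.14 ± 3.75 CPM in the flank skin (SD, n = 3). H2-DMb1 was 5.0-fold lower in footpad tumors, a log2 fold change of -2.32 (SE 0.48; edgeR adjusted p = 0.0403, DESeq2 adjusted p = 5.93e-05). The edgeR call was lost whichever of the 6 tumors was left out, with log2 fold changes from -2.68 to -1.75 and adjusted p from 0.0577 to 0.149.

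**Figure D2:**
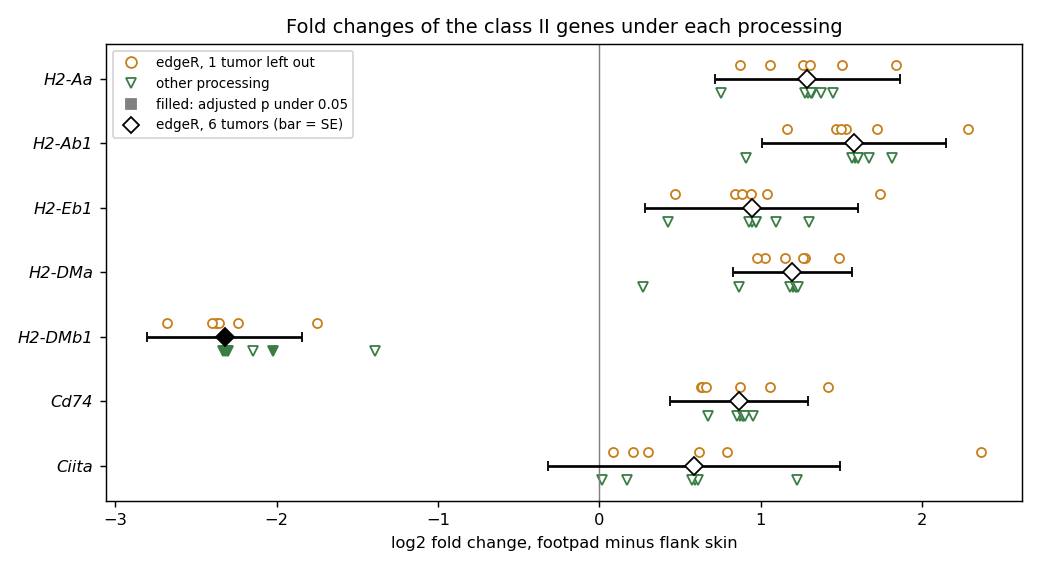
Log2 fold change, footpad minus flank skin (horizontal axis), of the 7 class II genes by edgeR on all 6 tumors (diamonds, bars 1 SE), by edgeR with 1 tumor left out (circles) and under other processing (triangles), with filled symbols at an adjusted p under 0.05. H2-DMb1 is negative throughout, from -2.68 to -1.75 with a tumor left out, and the other genes are positive throughout.

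The H2-DM genes sit together in the class II region of chromosome 17, with H2-DMa at chr17:34119693-34139101, H2-DMb2 at chr17:34143229-34151553 and H2-DMb1 at chr17:34153191-34160229 (GRCm38). H2-DMb2 is a close copy of H2-DMb1 and encodes a second form of the beta chain. Of the stretches of 50 bases in H2-DMb1 transcripts, 22.7% also occur in H2-DMb2, and the treatment of reads that match both genes is not given in the sources used here, so that the split between them is uncertain. H2-DMb2 had 31, 34 and 33 reads in the footpad tumors and 33, 44 and 16 reads in the flank skin tumors. Those levels overlapped between the sites, with a log2 fold change of 0.24 (SE 0.50; edgeR adjusted p = 0.801). H2-DMa overlaps Brd2, a chromatin reader gene on the opposite strand with 91.6 to 148 CPM per tumor, and Brd2 had a log2 fold change of 0.31 (edgeR adjusted p = 0.343). H2-DMa itself was at 0.724 to 2.96 CPM. Without the strand setting of the counting, reads where this pair overlaps cannot be told apart, so the level of H2-DMa is uncertain.

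Beyond H2-DMb1 on the chromosome lie Psmb9, Tap1, Psmb8 and Tap2, which serve the class I pathway as proteasome subunits and peptide transporters. Tap2 measured 4.35, 2.90 and 4.55 CPM in the footpad tumors, against 5.48, 9.64 and 4.60 CPM in the flank skin tumors. It was the neighbor in which, as in H2-DMb1, each footpad tumor was below each flank skin tumor, though replicate 3 of both sites was nearly equal, and its log2 fold change of -0.74 was not called by edgeR (adjusted p = 0.231). Psmb9 had -0.91 (adjusted p = 0.268), Tap1 -0.33 (adjusted p = 0.484) and Psmb8 0.08 (adjusted p = 0.908) in the same edgeR fit.

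The promoters of H2-Aa, H2-Eb1, H2-DMb1 and H2-DMb2 are shown to set the gene that fell beside a pair of surface chain genes that did not and beside its own close copy. Each is the 150 bases before a transcript start that RefSeq annotates, 5′ to 3′ on the strand of the gene, from RefSeq on GRCm38.p6, at chr17:34287824-34287973 (minus strand), chr17:34305717-34305866, chr17:34153041-34153190 and chr17:34145099-34145248 (plus strand). The start used for H2-DMb2 lies inside the span given above for that gene, which has another start upstream. Capitals mark 3 short runs of letters, searched on both strands: CCAAT, which reads ATTGG on the other strand and is the core of the Y box bound by NF-Y, GCAAC, the core letters of the X1 box bound by RFX, and GATGATG, which was added after the windows were seen.
H2-Aa: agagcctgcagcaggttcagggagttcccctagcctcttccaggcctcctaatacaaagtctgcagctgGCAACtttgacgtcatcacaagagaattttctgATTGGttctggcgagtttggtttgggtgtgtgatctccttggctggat
H2-Eb1: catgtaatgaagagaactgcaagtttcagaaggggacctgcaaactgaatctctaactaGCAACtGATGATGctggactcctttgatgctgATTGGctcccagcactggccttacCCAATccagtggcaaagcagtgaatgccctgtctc
H2-DMb1: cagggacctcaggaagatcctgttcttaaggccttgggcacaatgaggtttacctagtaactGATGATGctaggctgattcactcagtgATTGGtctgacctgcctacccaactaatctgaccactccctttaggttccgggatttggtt
H2-DMb2: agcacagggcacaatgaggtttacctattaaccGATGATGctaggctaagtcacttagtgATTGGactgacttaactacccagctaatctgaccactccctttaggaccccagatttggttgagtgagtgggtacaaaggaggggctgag

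The Y box letters began 48 bases before the start in H2-Aa, 59 and 35 bases in H2-Eb1, 61 bases in H2-DMb1 and 90 bases in H2-DMb2. The X1 letters began 81 bases before the start in H2-Aa and 91 bases in H2-Eb1, and no exact match was in the windows of H2-DMb1 and H2-DMb2. The letters just before GATGATG read GCAACt in H2-Eb1, gtaact in H2-DMb1 and ttaacc in H2-DMb2. GATGATG began 85 bases before the start in H2-Eb1, 88 bases in H2-DMb1 and 117 bases in H2-DMb2. In each of the 4 windows printed the Y box letters stood nearest to the start. The windows found for H2-DMa, the partner chain gene, lie before a pair of starts inside its span and did not have this arrangement. They held the X1 letters 7 bases before the one start and the Y box letters 198 bases before the other. The former window, at chr17:34122682-34122831, overlaps Brd2 at chr17:34112019-34122814. Windows before other starts of H2-DMa were not examined, so whether the gene has this arrangement elsewhere is not known. Of 32851 promoter windows of 250 bases, from 27025 genes, 33.8% held CCAAT, 29.9% held GCAAC, 10.6% held both, 2.92% held GATGATG and 1.03% held GATGATG with CCAAT. The windows of 250 bases of H2-DMb1 and H2-DMb2, longer than those printed, were identical in 174 of 291 alignment columns (59.8%), gaps included. A match of letters is a description of the window, and binding was not measured.

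Ciita, the master regulator of the pathway, was near the detection limit, with 29, 31 and 16 reads in the footpad tumors and 3, 45 and 8 reads in the flank skin tumors. These were 0.651, 0.452 and 0.326 CPM in the footpad and 0.052, 0.769 and 0.128 CPM in the flank skin. The flank skin group held both the lowest and the highest tumor, and the 95% Poisson intervals of those counts, which cover counting error only, were 0.619 to 8.77 reads for replicate 1 and 32.8 to 60.2 reads for replicate 2. The log2 fold change was 0.59 (SE 0.91; edgeR adjusted p = 0.718) and moved to 2.37 (adjusted p = 0.149) without flank skin replicate 2. Ciita, at chr16:10480014-10531064 of GRCm38, overlaps Dexi on the opposite strand, and reads where that pair overlaps cannot be told apart either.

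To compare levels between genes, the FPKM values deposited by the authors, which are scaled for transcript length and depth, were used. In footpad tumors the order was Cd74 at 4.32 ± 1.06 FPKM, H2-Ab1 at 2.20 ± 0.369, H2-Aa at 2.11 ± 0.567, H2-Eb1 at 1.04 ± 0.106, H2-DMb1 at 0.848 ± 0.144, H2-DMa at 0.470 ± 0.1503 and Ciita at 0.0463 ± 0.0134 FPKM (mean and SD, n = 3). H2-Ab1 and H2-Aa overlapped, as did H2-Eb1 and H2-DMb1, and each other step in this order was without overlap. In flank skin tumors H2-DMb1 came first with 4.36 ± 2.99 FPKM, followed by Cd74 at 2.50 ± 1.605, H2-Aa at 0.896 ± 0.648, H2-Ab1 at 0.762 ± 0.607, H2-Eb1 at 0.569 ± 0.501, H2-DMa at 0.214 ± 0.0881 and Ciita at 0.0338 ± 0.0440 FPKM. H2-DMb1 thus went from the fifth place in the footpad to the top in the flank skin, although its range there overlapped that of Cd74. Each pair of neighbors in the flank skin order overlapped except H2-DMa and Ciita.

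Ratios between partner chains, and between the beta chains of the E and A molecules, were taken within each tumor and then compared between the sites. The FPKM ratio of H2-DMa to H2-DMb1 was 0.691, 0.645 and 0.354 in the footpad tumors and 0.0399, 0.0405 and 0.1005 in the flank skin tumors. The ratios of the flank skin tumors were all far lower. The ratio was 9.90-fold higher in footpad tumors, a log2 difference of 3.31 without overlap (exact permutation test, two-sided, p = 0.1, which is the lowest possible with 3 tumors against 3; 0.2 adjusted over 4 ratios), and 3.08 to 3.75 when single tumors were left out. The FPKM of H2-DMa for a given CPM varied 1.97-fold between tumors, against 1.19-fold to 1.22-fold for the other 6 genes, so the length scaling of H2-DMa was not the same in each tumor and its place among the levels is uncertain. In CPM, an alternative chosen after seeing the data, the ratio was 2.75, 1.64 and 1.70 in the footpad and 0.132, 0.143 and 0.366 in the flank skin, and the log2 difference was 3.37. By contrast the FPKM ratio of H2-Aa to H2-Ab1 stayed near 1, with 1.08, 0.938 and 0.825 in the footpad and 1.15, 1.09 and 1.37 in the flank skin. The footpad ratios were all slightly lower, by 0.34 on the log2 scale (exact permutation p = 0.1, adjusted 0.2). The FPKM ratio of H2-Eb1 to H2-Ab1 overlapped between the sites, from 0.447 to 0.516 in the footpad and from 0.485 to 0.777 in the flank skin (exact permutation p = 0.2, adjusted 0.267). With 0.1 added to each FPKM it no longer overlapped, from 0.469 to 0.541 and from 0.646 to 0.801 (exact permutation p = 0.1).

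**Figure D3:**
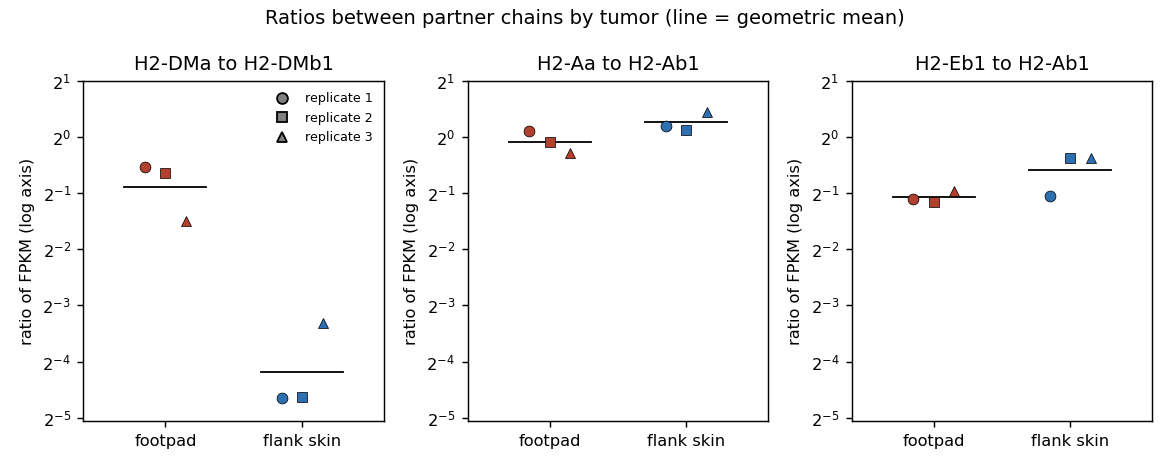
Ratio of FPKM between partner chains, and between the beta chains H2-Eb1 and H2-Ab1 (vertical axes, log scale), in each tumor, with the line at the geometric mean of a site. The H2-DMa to H2-DMb1 ratio lies between 0.354 and 0.691 in footpad tumors and at 0.1005 or below in flank skin tumors, while the other ratios lie between 0.447 and 1.37 over both sites.

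The remaining class II genes of the region were scarcely detected. H2-Oa and H2-Ob encode the chains of H2-DO, the inhibitor of H2-DM that B cells use. H2-Oa had 2 reads in flank skin replicate 1 and none elsewhere, H2-Ob had 5 reads in footpad replicate 1 and none elsewhere, and H2-Eb2 had 0 reads in all 6 tumors. Among 7 partners of CIITA, edgeR called 0 (2 at an unadjusted p under 0.05) and DESeq2 called 2 lower, against 6.08% of all tested genes, the NF-Y subunit gene Nfyb (log2 fold change -0.40, DESeq2 adjusted p = 0.0429) and Creb1 (-0.41, DESeq2 adjusted p = 0.0223). Their median log2 fold change was -0.22, and Nfyb and Creb1 were lower in each footpad tumor than in each flank skin tumor, as were 15% of all tested genes. Nfya, which encodes another NF-Y subunit, went the other way without overlap, from 26.4 to 31.6 CPM in the footpad and from 21.2 to 25.4 CPM in the flank skin (0.32, edgeR adjusted p = 0.216).

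Interferon-gamma, the main inducer of Ciita outside of professional presenting cells, was not detected, with 0 reads of Ifng in each tumor. Of 9 tested genes listed with its input, edgeR called 0 (1 at an unadjusted p under 0.05) and DESeq2 called 1 higher, against 9.82% of all tested genes. That gene, Spi1, encodes a myeloid transcription factor and no part of the interferon-gamma receptor pathway (log2 fold change 2.62, edgeR adjusted p = 0.0848, DESeq2 adjusted p = 0.00250). The kinase genes Jak1 and Jak2 had log2 fold changes of 0.16 and 0.02 and the receptor chain gene Ifngr2 had 0.03, and their ranges overlapped between the sites.

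Of 10 genes of endosomal antigen processing, 2 rose in footpad tumors by edgeR, against 3.43% of all tested genes, and DESeq2 called 5 higher and 1 lower, against 9.82% and 6.08%. Ctsl and Ctsh encode the lysosomal proteases cathepsin L and cathepsin H. Ctsl was at 320 ± 20.6 CPM in the footpad and 178 ± 34.9 CPM in the flank skin (SD, n = 3; log2 fold change 0.85, edgeR adjusted p = 0.0392). Ctsh was at 34.7 ± 4.69 and 14.8 ± 2.54 CPM (1.23, edgeR adjusted p = 0.0201). Leaving out single tumors kept some of these calls and lost others, with adjusted p from 0.0320 to 0.147 for Ctsl and from 0.0337 to 0.103 for Ctsh. Ctss, which encodes the protease of the last cut of CD74 in presenting cells, was at 64.3, 49.3 and 61.5 CPM in the footpad, against 8.499, 38.9 and 17.4 CPM in the flank skin. The sites did not overlap in Ctss, flank skin replicate 1 was again lowest, and its log2 fold change of 1.43 was called by DESeq2 (adjusted p = 0.0117) and not by edgeR (adjusted p = 0.120). The median of the 10 genes was 0.83, and in 6 of them each footpad tumor lay above each flank skin tumor, as in 17.5% of all tested genes. Ifi30, the thiol reductase of the endosome, lay below without overlap (-0.60, edgeR adjusted p = 0.102, DESeq2 adjusted p = 0.0354).

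Of 5 tested genes of co-stimulation and helper T cell contact, edgeR called 0 (3 at an unadjusted p under 0.05) and DESeq2 called 2 higher and 1 lower, against 9.82% and 6.08% of all tested genes. Cd40 was at 1.30, 0.699 and 2.35 CPM in the footpad and 0.224, 0.359 and 0.319 CPM in the flank skin (log2 fold change 2.26, edgeR adjusted p = 0.0570). Cd80 and Cd86, the ligands of CD28, had 2.89 and 2.50 (edgeR adjusted p = 0.0578 and 0.217), and these 3 genes were higher in each footpad tumor than in each flank skin tumor, as were 17.5% of all tested genes. Icosl went the other way with -0.70 (edgeR adjusted p = 0.0933). Cd4, the coreceptor gene of the cells that read class II, had 7 reads in flank skin replicate 3 and 0 reads in the other 5 tumors.

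Per the labels whole tumors were removed for RNA, whereas the methods describe an isolation of tumor cells, by no stated procedure, which could lower the share of host cells. Either way 1 mixed RNA was sequenced per tumor, in which more cells of a type and more RNA per cell cannot be told apart. Of 12 macrophage markers, 11 had a higher mean in footpad tumors, 1 was called, the lysosomal protein gene Cd68 (log2 fold change 1.51, edgeR adjusted p = 0.0429, and 0.0335 to 0.148 with single tumors left out), against 3.43% of all tested genes, and 10 were lowest in flank skin replicate 1, as were 24.5% of all tested genes. DESeq2 called 3 higher, Cd68, Fcgr1 and Itgam, against 9.82% of all tested genes. The receptor gene Csf1r measured 15.1, 14.8 and 13.04 CPM in the footpad, against 0.655, 12.0 and 4.94 CPM in the flank skin, the order of flank skin tumors seen in the surface chains. The summed level of the list was 215 to 274 CPM in the footpad and 155 to 213 CPM in the flank skin, and no marker was at 0. Mertk, at 79.1 to 134 CPM, made up much of that sum, and without it and Itgam, which neutrophils share, the sum was 111, 129 and 128 CPM in the footpad and 24.8, 113 and 62.2 CPM in the flank skin.

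The summed CPM of the 7 class II genes per CPM of macrophage markers was 0.0805, 0.0837 and 0.0584 in the footpad tumors and 0.0593, 0.111 and 0.0595 in the flank skin tumors. These ratios overlapped, with a log2 difference of 0.00311 (two-sided exact permutation p = 1). With H2-DMb1 taken out of the sum and Mertk and Itgam out of the markers, alternatives chosen after seeing the data, the ratio was 0.189, 0.129 and 0.0999 in the footpad and 0.1596, 0.118 and 0.104 in the flank skin. The sites overlapped there as well, by a log2 difference of 0.11 (exact permutation p = 0.7). Each change alone moved the difference, to 0.76 without H2-DMb1 and to -0.65 without Mertk and Itgam (exact permutation p = 0.2 for each). The part of macrophages in the class II values was not tested further.

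Of 11 dendritic cell markers, 6 were tested, edgeR and DESeq2 called 0 of them (0 at an unadjusted p under 0.05 in edgeR), and the summed level was 12.5 to 16.6 CPM in the footpad and 11.7 to 16.4 CPM in the flank skin. Zbtb46, at 8.90 to 11.6 CPM with overlap between the sites, made up most of that sum. Of the 6 tested, 3 were lowest in flank skin replicate 1, as were 24.5% of all tested genes. Xcr1 and Cd209a had at most 3 reads in each tumor. B cell markers summed to 1.39 to 1.81 CPM and 1.37 to 2.16 CPM, with 2 of 6 tested and 0 called by edgeR or DESeq2 (0 at an unadjusted p under 0.05). Cd3d and Cd3g, which encode chains of the T cell receptor complex, were at 0 in all 6 tumors, Cd3e had at most 3 reads, and no NK cell marker of 6 passed the filter on low counts. Of 6 endothelial markers, edgeR called 2 higher, against 3.43% of all tested genes, and DESeq2 called 5 higher, against 9.82%. Those called by edgeR were Pecam1 and Emcn (adjusted p = 0.0253 and 0.0351, up to 0.115 and 0.141 with single tumors left out). In all 6 every footpad tumor lay above every flank skin tumor, as in 17.5% of all tested genes. The endothelial markers summed to 122 to 201 CPM in the footpad and 69.4 to 90.4 CPM in the flank skin. Neutrophil markers summed to 363, 6.86 and 175 CPM in the footpad and 4.76 to 30.1 CPM in the flank skin. Keratinocyte and skeletal muscle markers summed to 573 and 462 CPM in footpad replicate 2, against at most 26.5 and 52.4 CPM in the other tumors. Of the neutrophil, keratinocyte and muscle markers 6, 5 and 6 were tested, and edgeR called 0 (6, 4 and 0 at an unadjusted p under 0.05). DESeq2 called 2, 1 and 0 of them higher, against 9.82% of all tested genes. It gave no adjusted p for Krt10, Dsp, Ckm, Mylpf, Tnnt3 and Tnnc2. Without footpad replicate 2, H2-DMb1 had a log2 fold change of -2.38 (edgeR adjusted p = 0.0612). Melanocyte markers, the lineage of the grafted cells, summed to 9795 to 17928 CPM and 14344 to 24930 CPM, with 0 of 7 called by edgeR (1 at an unadjusted p under 0.05) or by DESeq2. The part of these cell types in the class II values was not tested.

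**Figure D4:**
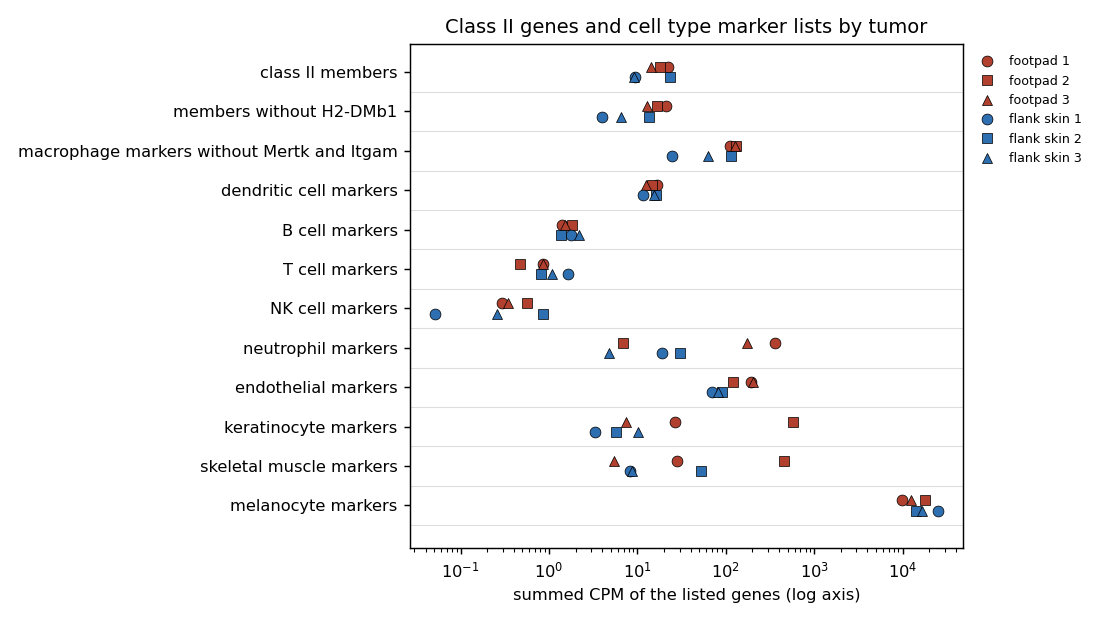
Summed CPM (horizontal axis, log scale) of the class II genes and of marker lists for cell types in each tumor, colored by site and shaped by replicate. Flank skin replicate 1 is lowest both in the class II genes without H2-DMb1, at 3.97 CPM, and in the macrophage markers without Mertk and Itgam, at 24.8 CPM. It is also lowest in the dendritic cell, NK cell, endothelial and keratinocyte markers, at 11.7, 0.0517, 69.4 and 3.33 CPM. It is not lowest in the B cell, T cell, neutrophil, skeletal muscle and melanocyte markers.

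Summed over the genes other than H2-DMb1, class II expression was 21.0, 16.7 and 12.8 CPM in the footpad tumors and 3.97, 13.4 and 6.49 CPM in the flank skin tumors, and flank skin replicate 2 reached the footpad range. The genes whose pattern over the 6 tumors was most like the mean of the 7 genes, by the root mean square difference of log2 CPM centered on each gene, were Pcdhga5 (0.126), Slco2b1 (0.137) and Siglec1 (0.145). Siglec1 encodes sialoadhesin, a macrophage receptor, and was at 2.92, 2.72 and 2.29 CPM in the footpad and 0.741, 3.93 and 1.26 CPM in the flank skin. The members lay farther from their own mean, from 0.264 for Cd74 to 0.521 for H2-Ab1, and H2-DMb1 lay apart at 1.598. Nearest to H2-DMb1 itself, a search added after its values were seen, were Plxnb3 (0.308) and Scn1a (0.334). Scn1a, a neuronal sodium channel gene, was at 7.25, 6.44 and 8.88 CPM in the footpad and 40.7, 44.2 and 23.2 CPM in the flank skin. Its lower level in the footpad follows from the way it was chosen.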

How the data were processed

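Per the labels, RNA was isolated with RNeasy and made into TruSeq stranded total RNA libraries. The authors' processing notes name FastQC 0.11.7, Trimmomatic and HISAT2 2.1.0, with mm10 as the genome. The counting program and its strand setting are not given in the sources used here. The authors deposited raw counts, whole numbers of reads on each gene, and beside them FPKM, which they scaled for transcript length and depth.

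The counts went into edgeR 4.0.16 under R 4.3.3 (filterByExpr, which kept 17210 genes, TMM factors, glmQLFit and glmQLFTest, Benjamini-Hochberg adjustment). Standard errors were taken as the log2 fold change over the square root of the F statistic. Depth of 46529649 to 66364366 reads per tumor put the limit of 3 reads at 0.0437 to 0.0673 CPM. Alternatives were DESeq2 1.42.0, limma 3.58.1 on log2(FPKM + 1) and log2(FPKM + 0.1), upper-quartile scaling, no filter, 10 counts in every tumor, the replicate number as a block and each tumor left out in turn. Ratios were compared with exact permutation tests. On simulated data for 17210 genes edgeR called 69 of 100 genes changed 4-fold, 94 of 100 changed 16-fold and 8 unchanged genes.

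The members and the 16 lists, 117 genes in all, were chosen with earlier results of these data known. Named from a list were genes called by edgeR, otherwise up to 4 with the highest mean CPM, and genes near 0. Among the genes this rule names, 1 is not reported here. Spi1, Ctss, Ifi30, Csf1r, Fcgr1, Mertk, Itgam and Scn1a were named after their values were seen. Of the listed genes, 45679 matched RefSeq by identifier. Promoter windows were found for 4 of the 7 genes. Spreadsheet software had turned 26 symbols into dates, and listed genes among them were found by identifier. Tables were made in Python 3.11.15 with pandas 2.3.3, scipy 1.17.1 and matplotlib 3.10.9.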

Additional observations from a re-analysis of the deposited data

How the results depend on the processing

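The direction of each class II gene was the same under all alternatives run, and the calls were not. Of the 7 genes 1 was called by edgeR, 3 by DESeq2 (2 higher and 1 lower), 0 by limma on log2(FPKM + 1), where 4 had an unadjusted p under 0.05, and 0 to 0 when single tumors were left out, where 2 to 7 had an unadjusted p under 0.05. All 7 reached it without flank skin replicate 2. H2-DMb1 had adjusted p of 0.0306 to 0.0420 under other filters, upper-quartile scaling and limma on log2(FPKM + 0.1), and 0.0802 with limma on log2(FPKM + 1). Over all genes edgeR called 838, DESeq2 called 2729 and edgeR called 0 to 987 with single tumors left out. The lowest counts were 0 without footpad replicate 3 (3289 at an unadjusted p under 0.05), 31 without footpad replicate 1, 46 without flank skin replicate 3 and 388 without flank skin replicate 1, with 553 without flank skin replicate 2. Of 84 tested genes in the pathway and marker lists 5 were called by edgeR, 23 by DESeq2 and 0 to 14 with single tumors left out. With the replicate number as a block, which the labels do not tie to shared animals and for which same-numbered tumors had correlations of 0.0544, -0.0965 and -0.1147, edgeR called 0 of the 7 (3 at an unadjusted p under 0.05) and 0 genes in all (3551 at an unadjusted p under 0.05), and H2-DMb1 had an adjusted p of 0.108. The log2 difference in class II level per macrophage marker ranged from -0.15 to 0.30 with single tumors left out, and was 0.47 per dendritic cell marker, -0.65 without Mertk and Itgam and 0.76 without H2-DMb1. The dendritic cell marker sum was mostly Zbtb46. The cause of these shifts was not tested. Ciita, with 3 reads in its lowest tumor, did not pass the filter of 10 counts, and its low counts limit what could be detected.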
